A study of Mus musculus with 6 samples.

Results

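The genes described here are those of the sebaceous gland and of fatty acid, wax and glyceride synthesis. The list holds 35 symbols, and each matched exactly 1 of the 55487 genes in the deposited count table. They were read on day 2 in the dorsal skin of mice, taken whole, with 3 control libraries and 3 libraries after DPCP (diphenylcyclopropenone, a hapten that sensitizes skin and causes allergic contact dermatitis). The labels give the tissue, the treatment and a replicate number, and do not state the strain, the age, what the control skin received, or whether each library is a different animal. P-values here thus reflect only how far these libraries spread, and that spread may be technical. Library totals ran from 28346992 to 38846787 counts.

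Sebaceous glands sit on the hair follicle and fill their cells with triglycerides, wax esters and sterol esters until the cells burst and release sebum. The carbon comes from acetyl-CoA, which is carboxylated, built into palmitate by fatty acid synthase, then lengthened by elongases and given double bonds by desaturases. The acyl chains are joined to glycerol, fatty alcohols or cholesterol by acyltransferases. Dermal adipocytes and differentiating keratinocytes run much of the same chemistry, so in whole skin these transcripts have more than 1 source. Fewer cells of a type and less RNA per cell cannot be told apart in such bulk libraries.

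Levels are given as CPM, the counts per gene scaled to a common depth after adjustment by the trimmed mean of M-values (TMM), as mean ± SD over the 3 libraries of a group unless each library is listed. Differences are log2 fold changes of DPCP over control with their standard errors (SE) from edgeR, and a gene is called at a Benjamini-Hochberg adjusted p under 0.05 over all 18259 genes tested. Counts sufficed for a test in 34 of the 35 genes, and 23 of these were called (67.6%) against 46.1% of all genes tested. In DPCP skin 19 were lower (55.9%, with 23.3% of all genes tested called lower) and 4 were higher (11.8%, against 22.8%), while 11 were not called. The genes were listed with earlier results of these data known, so these shares describe the list and do not test it. By at least 1 on the log2 scale 8 were lower, against 9.12% of all genes tested, and 1 was higher, against 7.89%. With a floor chosen after the values were seen, among genes with a mean of at least 20 CPM, 16 of 29 members were called lower (55.2%) and 4 higher, against 24.7% and 29.4% of all such genes, of which 54.2% were called in either direction and 65.5% had groups that did not overlap. The median log2 fold change of the 34 was −0.61, and that of all genes tested −0.01. The CPM ranges of the groups did not overlap for 23 of the 34 (67.6%), against 58.0% of all genes tested. The 34 passed the same count filter as all other genes, and the untested member was Mogat2, a monoacylglycerol acyltransferase, with 13, 5 and 10 counts in control and 10, 13 and 6 in DPCP skin.

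**Figure D1:**
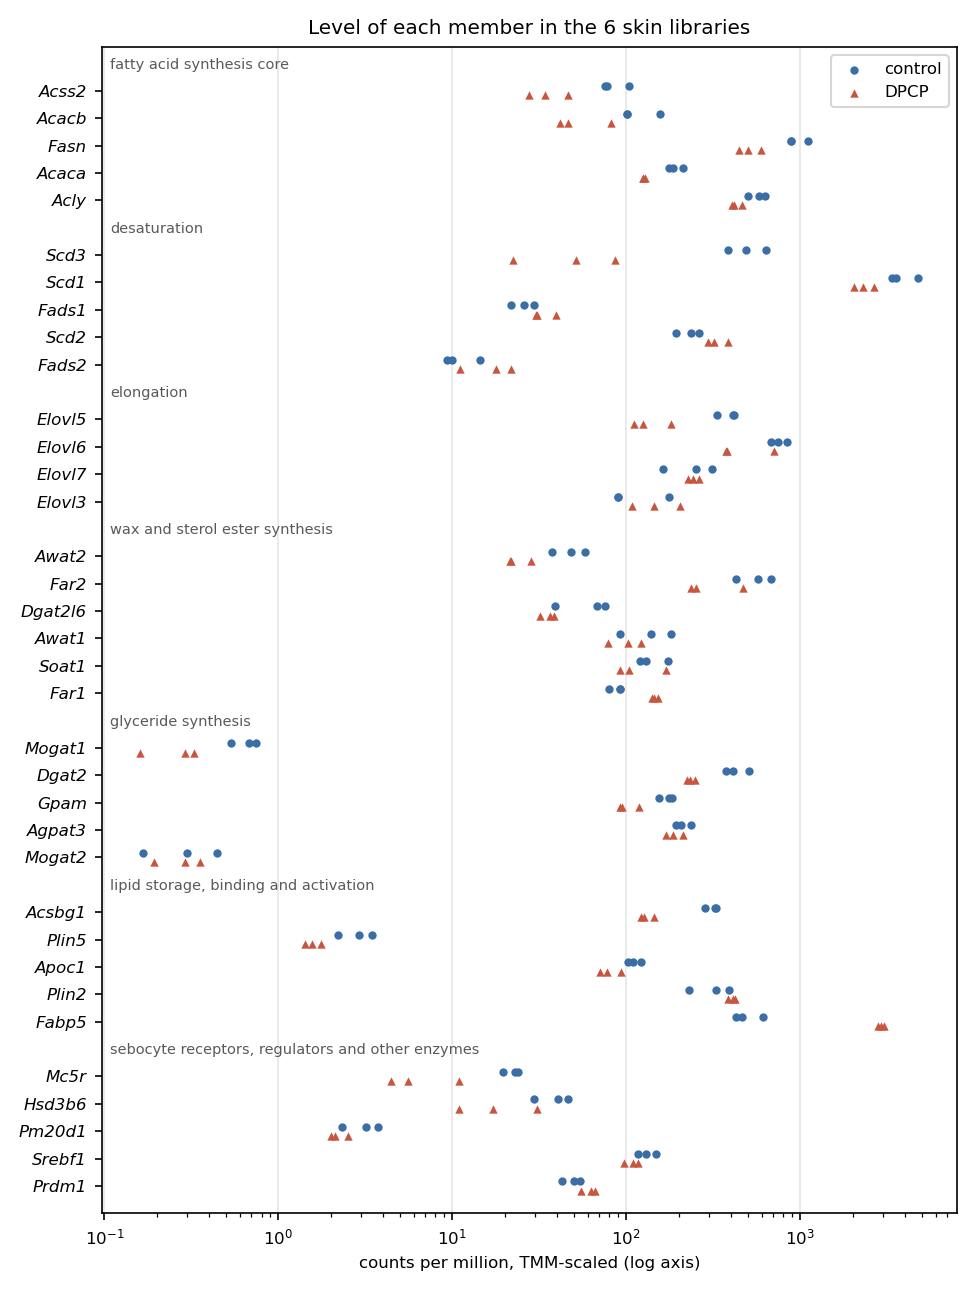
CPM of the 35 genes (log axis) in each of the 3 control libraries (circles) and 3 DPCP libraries (triangles), ordered by role. The DPCP libraries lie left of the control libraries in all 5 genes of the fatty acid synthesis core, and Fabp5 lies at 2810 to 3047 CPM in DPCP against 429 to 615 in control.

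RefSeq promoters (build GRCm38.p6) were found for 25 of the 35 genes. They were searched on both strands, over 250 bases before each start, for 3 sets of letters bound by factors known to act on lipogenic genes. The sterol regulatory element, bound by the SREBP factors and searched in its classical form without mismatch, was in 0 of the 25 and in 0.0814% of the 27025 genes in the promoter table. A form this rare is unlikely to be met in 25 genes, so its absence cannot set them apart. The CCAAT box (CCAAT), bound by NF-Y, was in 13 of the 25, against 37.5% of all genes. These were 8 of the 15 called lower, both of those called higher (Far1 and Prdm1) and 3 of the 8 not called. The E-box CACGTG was in 1 of the 25, Elovl5, against 6.86% of all genes. A match is a description of letters and says nothing of binding. The windows of Elovl5 and Fasn, which were lower in DPCP skin, and of Far1, which was higher, are given from 5′ to 3′ on the strand of the gene, since all 3 hold CCAAT boxes while their levels moved in opposite directions. Capitals mark CCAAT, its reverse complement ATTGG, and CACGTG. In Fasn a CCAAT and an ATTGG overlap.
Elovl5, chr9:77917115-77917364, plus strand: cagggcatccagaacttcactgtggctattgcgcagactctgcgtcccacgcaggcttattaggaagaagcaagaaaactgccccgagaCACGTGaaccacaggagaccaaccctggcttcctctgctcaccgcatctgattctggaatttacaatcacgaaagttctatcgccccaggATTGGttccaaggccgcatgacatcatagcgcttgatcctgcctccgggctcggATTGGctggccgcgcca
Fasn, chr11:120824548-120824797, minus strand: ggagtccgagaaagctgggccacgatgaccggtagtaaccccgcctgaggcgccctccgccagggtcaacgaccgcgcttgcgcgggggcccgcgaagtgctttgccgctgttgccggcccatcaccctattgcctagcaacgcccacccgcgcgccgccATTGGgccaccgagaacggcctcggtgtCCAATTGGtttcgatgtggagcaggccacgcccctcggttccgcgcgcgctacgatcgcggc
Far1, chr7:113513584-113513833, plus strand: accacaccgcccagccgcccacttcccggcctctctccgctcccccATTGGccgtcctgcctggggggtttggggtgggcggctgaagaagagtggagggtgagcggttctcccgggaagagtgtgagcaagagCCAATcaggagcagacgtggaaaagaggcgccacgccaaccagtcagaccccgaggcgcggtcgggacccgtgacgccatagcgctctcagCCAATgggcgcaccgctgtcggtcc

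While 23.3% of all genes tested were called lower, all 5 genes of the fatty acid synthesis core were lower in DPCP skin. They supply acetyl-CoA from acetate (Acss2) or citrate (Acly), carboxylate it to malonyl-CoA (Acaca and Acacb) and build palmitate (Fasn). Acss2 stood at 77.1, 75.6 and 103 CPM in the control libraries and at 46.4, 33.9 and 27.7 CPM in the DPCP libraries. The groups did not overlap (log2 fold change −1.24 ± 0.20, SE; edgeR adjusted p = 0.00123). Acacb, the carboxylase at the mitochondrial outer membrane whose malonyl-CoA restrains fatty acid oxidation, stood at 101.6, 101.7 and 156 CPM in control and at 82.0, 41.4 and 46.0 CPM in DPCP libraries. The log2 fold change was −1.08 ± 0.27 (SE; edgeR adjusted p = 0.0113). The groups did not overlap, although the highest DPCP library of Acacb, replicate 1, came close to the lower control libraries. Fasn was at 963 ± 131 CPM in control and 515 ± 77.1 CPM in DPCP skin (SD, n = 3; −0.90 ± 0.14, SE), and Acaca from 191 ± 18.2 to 126 ± 1.30 CPM (−0.60 ± 0.09). The smallest difference was that of Acly, from 570 ± 64.7 to 428 ± 31.9 CPM (−0.42 ± 0.11), which was not called without control replicate 1 (−0.39) or control replicate 3 (−0.34). Of the 100-base windows of Acaca transcripts, 23.7% recur in transcripts of other genes, chiefly the gene Gm5182, so part of its reads may not have been counted and its level is uncertain. Exons of Acss2 overlap those of Acss2os, Ggt7 and Gss on the other strand, and the counting did not use strand.

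**Figure D2:**
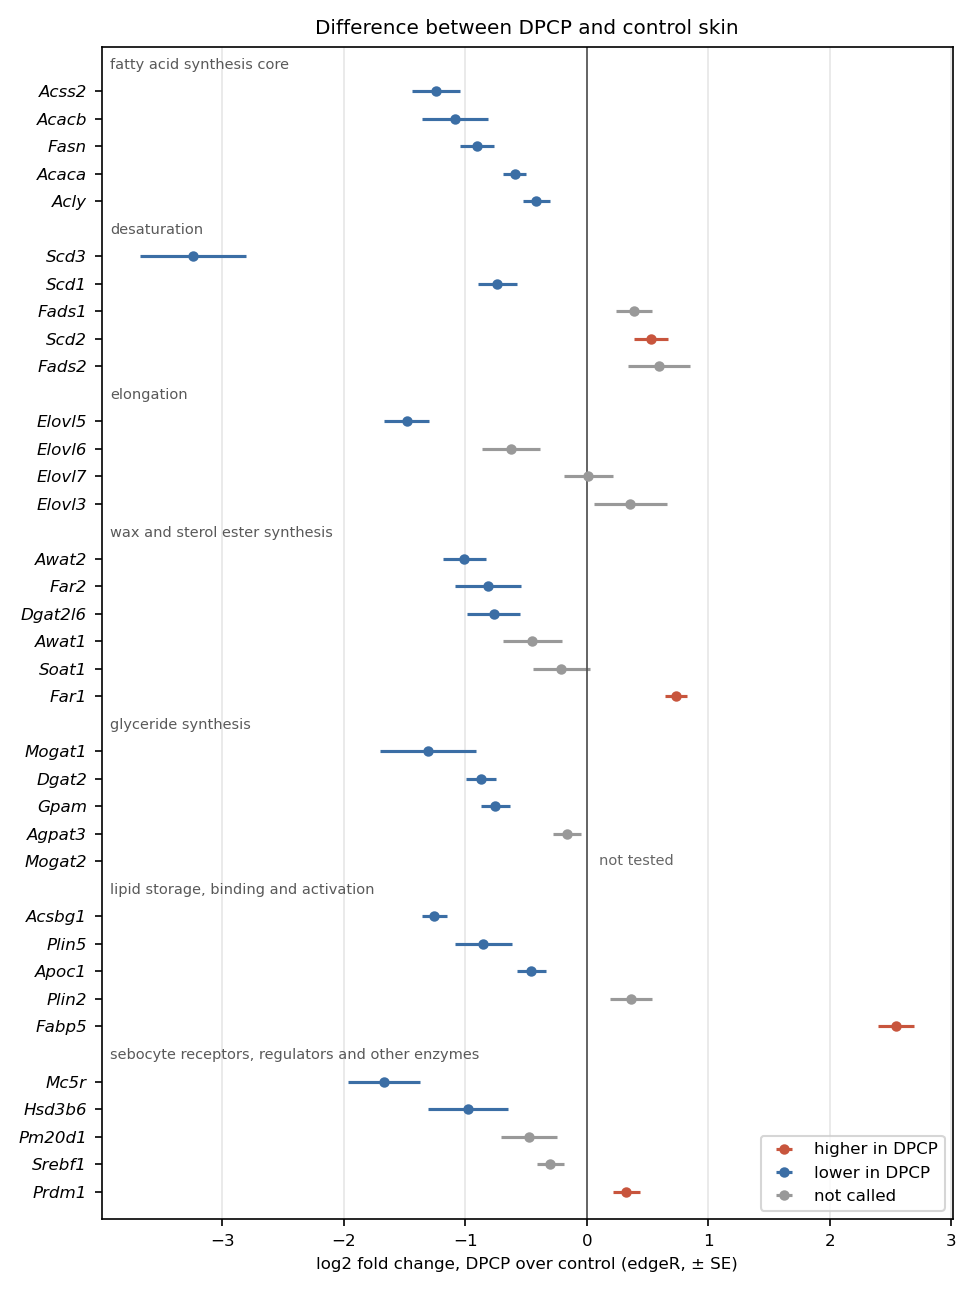
Log2 fold change of DPCP over control for each tested gene, with bars of ± 1 SE from edgeR, ordered by role. Of the 34 genes, 19 are called lower and 4 higher, from −3.24 for Scd3 to 2.54 for Fabp5.

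Desaturase genes differed by member. Scd1, Scd2 and Scd3 encode stearoyl-CoA desaturases, which turn saturated into monounsaturated acyl-CoA, and lie on chromosome 19 of GRCm38 in the order Scd3 (44203269 to 44244016), Scd2 (44293674 to 44306864) and Scd1 (44394455 to 44407879). Scd3 had the largest decrease of all members. It stood at 637, 386 and 489 CPM in the control libraries and at 85.8, 51.4 and 22.5 CPM in the DPCP libraries. Every DPCP library lay far below every control library, and the log2 fold change was −3.24 ± 0.43 (SE; edgeR adjusted p = 0.00056). Scd1, the most abundant member in control skin, went from 3910 ± 746 to 2344 ± 311 CPM (SD, n = 3; −0.74 ± 0.16, SE). Scd2 moved the other way, from 192, 237 and 263 CPM in control to 295, 320 and 384 CPM in DPCP libraries. Its groups did not overlap, and its log2 fold change was 0.53 ± 0.14 (SE; edgeR adjusted p = 0.0153). The share of 100-base transcript windows that recur in other genes, the other Scd genes among them, was 2.58% for Scd1, 0.879% for Scd2 and 2.49% for Scd3. The microRNA gene Mir5114 lies in an exon of Scd2.

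Fads1 and Fads2, which desaturate polyunsaturated fatty acids, were at 25.6 ± 3.90 and 11.2 ± 2.73 CPM in control and at 33.5 ± 5.33 and 16.9 ± 5.40 CPM in DPCP skin, neither called (edgeR adjusted p = 0.0577 and 0.0892). Without control replicate 2 Fads1 was called higher (log2 fold change 0.51), as was Fads2 without control replicate 2 (0.82) or DPCP replicate 1 (0.83). With DESeq2 (adjusted p = 0.0422 for Fads1 and 0.0412 for Fads2) or without a count filter both were also called higher.

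Of 4 elongase genes, 1 was called, while 46.1% of all genes tested were called. It was Elovl5, which lengthens polyunsaturated chains. Elovl5 stood at 417, 334 and 411 CPM in the control libraries and at 180, 125 and 110 CPM in the DPCP libraries. The groups were well apart, and the log2 fold change was −1.48 ± 0.18 (SE; edgeR adjusted p = 0.000384). Elovl6, which lengthens palmitate to stearate, was at 753 ± 79.8 and 488 ± 193 CPM (SD, n = 3) and was not called (log2 fold change −0.63 ± 0.24, edgeR adjusted p = 0.0601). Its DPCP replicate 1 stood at 711 CPM, inside the control range, while replicates 2 and 3 stood at 378 and 375 CPM. Without DPCP replicate 1 it was called lower (−0.995, adjusted p = 0.000431), and with DESeq2, library totals alone or no count filter its adjusted p was 0.0153, 0.0467 and 0.00526. Elovl7 was at 241 ± 74.1 and 243 ± 18.4 CPM (edgeR adjusted p = 0.97).

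Elovl3, an elongase of very long chains found in sebaceous gland and brown fat, was at 118 ± 49.6 CPM in control and 151 ± 48.0 CPM in DPCP skin (edgeR adjusted p = 0.36), and of the alternatives run it was called, as higher, only without control replicate 3 (log2 fold change 0.76). The brown fat marker Ucp1 was at 0.116 ± 0.0575 and 0.129 ± 0.0681 CPM, near the level that a count of 0 allows (0.0772 to 0.106 CPM, from 3 counts of a library's total, for counting error alone). The rest of the brown adipocyte list was well above that level. Cox8b and Cox7a1 were lower (log2 fold changes −1.65 ± 0.12 and −1.84 ± 0.16, SE) and Dio2 was higher (1.30 ± 0.22). All 10 genes of the skeletal muscle list were lower too, and the cell sources of Elovl3, Cox8b and Cox7a1 were not tested.

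In the wax and sterol ester group, 3 of 6 genes were lower and 1 was higher, against 23.3% and 22.8% of all genes tested. Awat1 and Awat2 join fatty alcohols to acyl-CoA to make wax esters, and Dgat2l6 belongs to the same acyltransferase family. All 3 lie on the X chromosome, in the order Awat2 (100402221 to 100442717), Dgat2l6 (100524838 to 100546144) and Awat1 (100572251 to 100578205). Awat2 stood at 58.3, 37.7 and 48.3 CPM in control and at 28.5, 21.9 and 21.4 CPM in DPCP libraries. Its groups did not overlap, and its log2 fold change was −1.01 ± 0.17 (SE; edgeR adjusted p = 0.00195). Dgat2l6 was at 60.7 ± 19.2 and 35.7 ± 3.55 CPM (−0.77 ± 0.22, SE), and was not called without control replicate 1 (−0.67), control replicate 3 (−0.58) or DPCP replicate 2 (−0.69). Awat1 was at 138 ± 45.1 and 101 ± 21.9 CPM and was not called (−0.45 ± 0.24, edgeR adjusted p = 0.162). Among the alternatives, calls of Awat1 as lower included those without control replicate 2 (−0.66) and without a count filter (adjusted p = 0.0497).

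Fatty alcohols for waxes and ether lipids come from the acyl-CoA reductases Far1 and Far2, and these moved in opposite directions. Far1 stood at 91.7, 79.1 and 91.9 CPM in control and at 152, 145 and 140 CPM in DPCP libraries. All 3 DPCP libraries lay above the control range, and the log2 fold change was 0.74 ± 0.09 (SE; edgeR adjusted p = 0.000365). Far2 was at 559 ± 128 and 318 ± 130 CPM, with DPCP replicate 1 at 467 CPM, above the lowest control library at 426 CPM. It was called lower (−0.82 ± 0.27, SE; edgeR adjusted p = 0.0374) but not by DESeq2 (adjusted p = 0.0884), nor without control replicate 1 (−0.79), control replicate 3 (−0.65), DPCP replicate 2 (−0.64) or DPCP replicate 3 (−0.67). Exons of Far2 overlap those of Ergic2 and Far2os2, and those of Far1 overlap Far1os, all on the other strand. Soat1, which esterifies cholesterol, was at 141 ± 28.7 and 122 ± 41.9 CPM (edgeR adjusted p = 0.489), and of the alternatives run it was called, as lower, only without DPCP replicate 1 (−0.52).

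Glyceride synthesis genes were lower in 3 of the 4 cases tested, while 23.3% of all genes tested were called lower. Gpam encodes the mitochondrial glycerol-3-phosphate acyltransferase that opens the pathway, and went from 171 ± 14.9 to 101.6 ± 14.2 CPM (SD, n = 3; −0.75 ± 0.12, SE). Dgat2, the acyltransferase of the last step to triglyceride, went from 430 ± 67.3 to 235 ± 12.9 CPM (−0.87 ± 0.12). Agpat3 was at 212 ± 20.9 and 189 ± 21.9 CPM and was not called (edgeR adjusted p = 0.272). Mogat1 rested on few reads, with 20, 16 and 25 counts in control and 10, 12 and 5 in DPCP skin. These correspond to 0.681, 0.533 and 0.746 CPM in control and 0.289, 0.328 and 0.161 CPM in DPCP libraries, with no overlap. Its log2 fold change was −1.31 ± 0.40 (SE; edgeR adjusted p = 0.0243), and the call was lost with DESeq2 (adjusted p = 0.0783). It was also lost without control replicate 1 (−1.27), control replicate 3 (−1.20), DPCP replicate 1 (−1.38) or DPCP replicate 3 (−1.07).

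Fabp5 was the member with the largest increase. It encodes the epidermal fatty acid binding protein, a carrier of long-chain fatty acids that keratinocytes, macrophages and other cells make. Fabp5 (chromosome 3, 10012548 to 10016607) stood at 461, 429 and 615 CPM in the control libraries and at 3047, 2810 and 2921 CPM in the DPCP libraries. The 3 DPCP libraries lay close together and far above the control range. The log2 fold change was 2.54 ± 0.15 (SE; edgeR adjusted p = 1.28e-05), a 5.83-fold difference. Of its 100-base transcript windows, 2.19% recur in transcripts of other genes.

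The other genes of lipid storage, binding and activation were lower or not called. Acsbg1, an acyl-CoA synthetase, stood at 324, 282 and 327 CPM in control and at 144, 126 and 121 CPM in DPCP libraries. The groups did not overlap, and the log2 fold change was −1.26 ± 0.10 (SE; edgeR adjusted p = 5.28e-05). Apoc1, a small apolipoprotein, went from 111 ± 9.41 to 80.8 ± 11.6 CPM (−0.46 ± 0.12, SE). The lipid droplet coat gene Plin5 was at 2.85 ± 0.632 and 1.58 ± 0.167 CPM (−0.85 ± 0.23), and was not called without control replicate 3 (−0.69) or DPCP replicate 3 (−0.78). Plin2, the droplet coat protein of most cell types, was at 316 ± 81.3 and 406 ± 19.0 CPM and was not called (edgeR adjusted p = 0.119). It was called higher without control replicate 3 (0.55) or without a count filter (adjusted p = 0.043).

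Of the receptor, the regulators and the remaining enzymes, 2 of 5 were lower and 1 was higher, against 23.3% and 22.8% of all genes tested. Mc5r, the melanocortin receptor through which sebum output is stimulated in mice, stood at 23.0, 19.6 and 23.8 CPM in control and at 10.9, 5.53 and 4.41 CPM in DPCP libraries. Its groups did not overlap, and its log2 fold change was −1.67 ± 0.30 (SE; edgeR adjusted p = 0.00221). Srebf1, whose product SREBP1 activates fatty acid synthesis genes, was at 132 ± 15.9 and 107 ± 9.61 CPM and was not called (log2 fold change −0.30 ± 0.11, edgeR adjusted p = 0.0538). It was called lower without control replicate 1 (−0.37) or DPCP replicate 1 (−0.36), with upper-quartile factors (adjusted p = 0.0348), with library totals alone (0.0271) or with a filter of at least 1 CPM (0.0499). Prdm1, a transcriptional repressor of differentiating keratinocytes and sebocytes, stood at 53.9, 42.9 and 50.01 CPM in control and at 54.6, 66.2 and 63.1 CPM in DPCP libraries. The lowest DPCP library was barely above the highest control library, and its log2 fold change was 0.33 ± 0.11 (SE; edgeR adjusted p = 0.0433).

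The call of Prdm1 was lost without control replicate 2 (0.25), control replicate 3 (0.34), DPCP replicate 2 (0.26) or DPCP replicate 3 (0.31). It was also lost with upper-quartile factors (adjusted p = 0.0555), library totals alone (0.0859) or only genes sharing no exon base (0.0571). Hsd3b6, a steroid dehydrogenase, was at 38.7 ± 8.49 and 19.6 ± 9.99 CPM with overlapping groups (log2 fold change −0.98 ± 0.33, SE). It was not called with DESeq2 (adjusted p = 0.0827), nor without control replicate 1 (−0.94), control replicate 3 (−0.83), DPCP replicate 2 (−0.90) or DPCP replicate 3 (−0.69). Of its 100-base windows, 3.11% recur in Hsd3b2 and Hsd3b3. Exons of Elovl3, Elovl6, Srebf1, Mogat1, Mogat2 and Agpat3 also share bases with another annotated gene (Pitx3, Gm35986, Rai1 and Mir6922, BC035947, Gm45012, and Gm40709 with an unnamed gene), so their counts carry the same uncertainty as those of Scd2, Acss2, Far1 and Far2. Pm20d1, which joins fatty acids to amino acids, was at 3.08 ± 0.714 and 2.21 ± 0.268 CPM (edgeR adjusted p = 0.119).

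Levels can be compared between genes only per length, so CPM was divided by the exon length in the deposited table to give RPKM, the read density per unit of length and depth. That length covers every annotated exon of a gene, and can exceed the length of the transcript made. For Fabp5 it was 3567 bases in a gene spanning 10012548 to 10016607, so its RPKM may be too low. The ranks below hold only for these lengths. In control skin Scd1 stood first at 799 ± 153 RPKM, well above Apoc1 (149 ± 12.6), Scd3 (142 ± 35.5), Fabp5 (141 ± 27.9) and Dgat2 (140 ± 21.8), which did not differ beyond their spread. In DPCP skin Fabp5 stood first at 820 ± 33.3 RPKM and Scd1 next at 479 ± 63.7, followed by Plin2 (116 ± 5.40) and Apoc1 (109 ± 15.6). Scd3 went from rank 3 to rank 20 at 15.0 ± 8.93 RPKM. The lowest ranks in both groups were those of Plin5, Pm20d1, Mogat1 and Mogat2, all under 1.5 RPKM. By CPM, which is not corrected for length, Scd1, Fasn and Elovl6 led in control skin and Apoc1 ranked 22.

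Summed over the 35 genes, the level was 11446 ± 1796 CPM in control and 9976 ± 1092 CPM in DPCP skin (SD, n = 3), with overlapping groups. Without Fabp5 it was 10944 ± 1698 CPM in control and 7050 ± 990 CPM in DPCP skin. The groups then lay apart, at 9454 to 12793 CPM in control and 6401 to 8189 CPM in DPCP libraries. Fabp5 is the member with the largest increase, so leaving it out widens the difference by choice. Without Scd1 as well, the sums were 6059 to 8027.5 CPM in control and 4248 to 5519 CPM in DPCP libraries. Summed CPM of the fatty acid synthesis core was 1739 to 2214 in control and 1054 to 1317 in DPCP libraries, and that of the glyceride group 737 to 925 and 493 to 580. The sums of the wax and sterol ester group overlapped, at 803 to 1252 CPM in control and 616 to 978 CPM in DPCP libraries.

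Within each group 1 library stood high for most of these genes. Control replicate 3 had the highest CPM of the control libraries in 28 of the 34 tested genes (82.4%), against 35.8% of all genes tested. DPCP replicate 1 had the highest of the DPCP libraries in 26 of 34 (76.5%), against 33.7% of all genes, and in 16 of the 19 called lower. The median log2 ratio of the 34 genes to the control mean was −0.28 in DPCP replicate 1, −0.58 in replicate 2 and −0.68 in replicate 3. With each library left out in turn, 13 to 21 members were called lower and 3 to 5 higher, and the median log2 fold change ran from −0.71 to −0.52. The lowest count was without control replicate 3 and the highest without DPCP replicate 1.

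**Figure D3:**
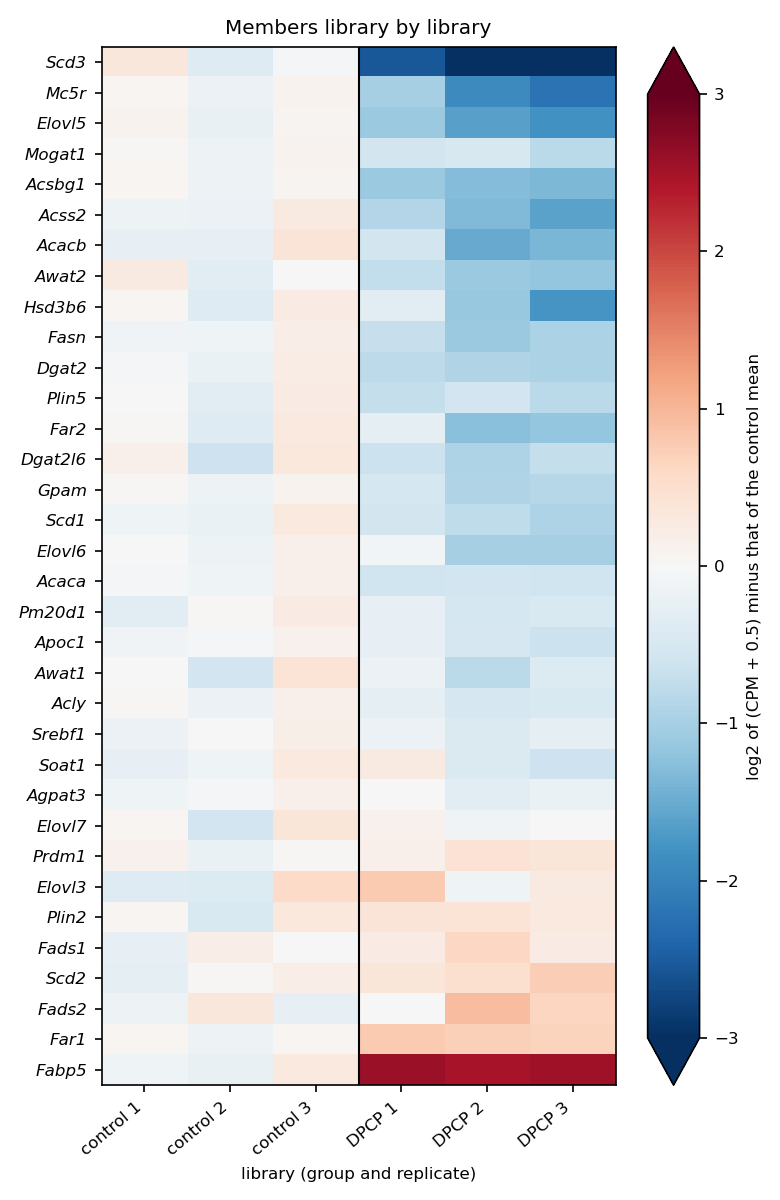
Log2 of (CPM + 0.5) in each library minus that of the control mean for the 34 tested genes, ordered by log2 fold change (blue below, red above the control mean, colours capped at 3 either way). DPCP replicate 1 is paler than replicates 2 and 3 for most of the blue genes, and Fabp5 is alike in all 3 DPCP libraries.

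Markers of other skin cells were read beside these genes. Their counts of calls stand beside 23.3% called lower and 22.8% called higher over all genes tested. Markers of suprabasal keratinocytes, which also make lipid, were lower in 4 of 5 cases, with a summed level of 11787 to 16801 CPM in control and 4582 to 6115 CPM in DPCP libraries. All 10 skeletal muscle genes were lower, at 13910 to 17495 and 3647 to 7095 CPM. Among 10 white adipocyte genes 3 were lower and 2 higher, and their summed level overlapped, at 1798 to 2028 CPM in control and 1611 to 1858 CPM in DPCP libraries. Of 9 macrophage genes 4 were higher and 5 not called, and their summed level overlapped, at 1876 to 3081 and 3024 to 5079 CPM. The neutrophil list was higher in all 5 tested cases, at 17.6 to 24.1 and 453 to 1209 CPM. Of 5 basal keratinocyte genes 2 were higher and 2 lower, at 12809 to 15186 and 24533 to 28347 CPM. Much of that sum was Krt14, at 4776 ± 396 CPM in control and 17426 ± 1233 CPM in DPCP skin (SD, n = 3). Krt15 was lower, at 2225 ± 98.9 and 651 ± 141 CPM. Of 4 T cell genes 3 were lower, at 30.1 to 39.5 and 8.83 to 12.4 CPM, and of the 3 brown adipocyte genes tested 2 were lower and 1 higher, at 65.2 to 75.1 and 33.6 to 40.6 CPM. No marker was at 0 in all libraries of a group. The part of these markers in the differences above was not tested. Nor was the cell source of the 2 lower brown adipocyte genes, Cox8b and Cox7a1, in skin whose muscle genes were also lower.

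Further genes of the gland, outside the 35, were read as a list of their own. Of 8 such genes 3 were lower and 5 not called, while 23.3% of all genes tested were called lower. The median log2 fold change of the 8 was −0.41, and their summed CPM overlapped (1927 to 2236 in control and 1575 to 2222 in DPCP). Lrig1, which marks stem cells above the gland, had a log2 fold change of −0.41 ± 0.09. Mgst1 was also called lower (−0.41 ± 0.15, SE; edgeR adjusted p = 0.0496). Fa2h (−0.65 ± 0.34), Gata6 (−0.57 ± 0.21) and Cidea (−0.41 ± 0.17) had negative values and were not called. The smallest differences of the list were those of Pparg and Krt79. Pparg, a driver of sebocyte and adipocyte differentiation, was at 38.7 ± 6.24 and 34.6 ± 5.42 CPM (edgeR adjusted p = 0.406). Krt79, a keratin of the gland duct, was at 1179.7 ± 48.1 and 1244 ± 172 CPM (edgeR adjusted p = 0.625). Without DPCP replicate 1, 6 of the 8 were called lower.

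Regulators of lipid synthesis were lower in 5 and higher in 2 of 15 cases (median −0.05), against 23.3% and 22.8% of all genes tested. Ppara, a receptor for fatty acids, and Mlxipl, which encodes the sugar-responsive factor ChREBP, had log2 fold changes of −1.74 ± 0.24 and −1.35 ± 0.16 (SE). Mlx, the partner of ChREBP, was higher by 0.54 ± 0.09 and the SREBP escort gene Scap by 0.45 ± 0.12, the latter not called without control replicate 1 (0.41) or control replicate 2 (0.42). Without either of these libraries 1 regulator was called higher. Srebf2, the sterol branch factor, was at 179 ± 22.5 and 221 ± 35.3 CPM (edgeR adjusted p = 0.10).

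Other genes of fatty acid synthesis, activation and elongation were lower in 8 and higher in 3 of 21 cases (median −0.17). The shares over all genes tested were 23.3% and 22.8%. Malic enzyme Me1, which yields NADPH, and the elongase Elovl1 were lower (−0.84 ± 0.14 and −0.56 ± 0.10, SE), while Olah, a thioesterase that releases medium-chain fatty acids, rose from 0.623 ± 0.167 to 2.90 ± 1.20 CPM (2.21 ± 0.38). Mecr, of mitochondrial fatty acid synthesis, was higher by 0.65 ± 0.11. Other glyceride and sterol ester genes were lower in 4 and higher in 3 of 15 cases (median −0.03), against the same shares. Agpat4 and Mboat2 had log2 fold changes of −1.05 ± 0.10 and −1.01 ± 0.10 (SE). Soat2, a cholesterol acyltransferase, rose from 0.301 ± 0.0305 to 2.87 ± 1.66 CPM (3.24 ± 0.52), and Lpin2 by 0.65 ± 0.14.

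Lipid droplet and lipolysis genes were lower in 3 and higher in 3 of 16 cases (median −0.22), with 7 called lower without DPCP replicate 1. Over all genes tested 23.3% were called lower and 22.8% higher. Fitm1 and Pnpla3 were lower (−1.21 ± 0.16 and −1.12 ± 0.12, SE), and G0s2, an inhibitor of lipolysis, and the lipase gene Lipe were higher (0.97 ± 0.19 and 0.43 ± 0.09). Fatty acid uptake and oxidation genes were lower in 8 and higher in 4 of 23 cases (median −0.17), with 5 called lower without control replicate 1, control replicate 3 or DPCP replicate 3. The mitochondrial coactivator gene Ppargc1a and the acyl-CoA dehydrogenase gene Acadm had log2 fold changes of −1.84 ± 0.15 and −0.86 ± 0.11 (SE). Ppard, a fatty acid receptor of keratinocytes, rose from 45.8 ± 5.58 to 131 ± 18.1 CPM (1.51 ± 0.13), and Fabp4 by 0.74 ± 0.13.

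**Figure D4:**
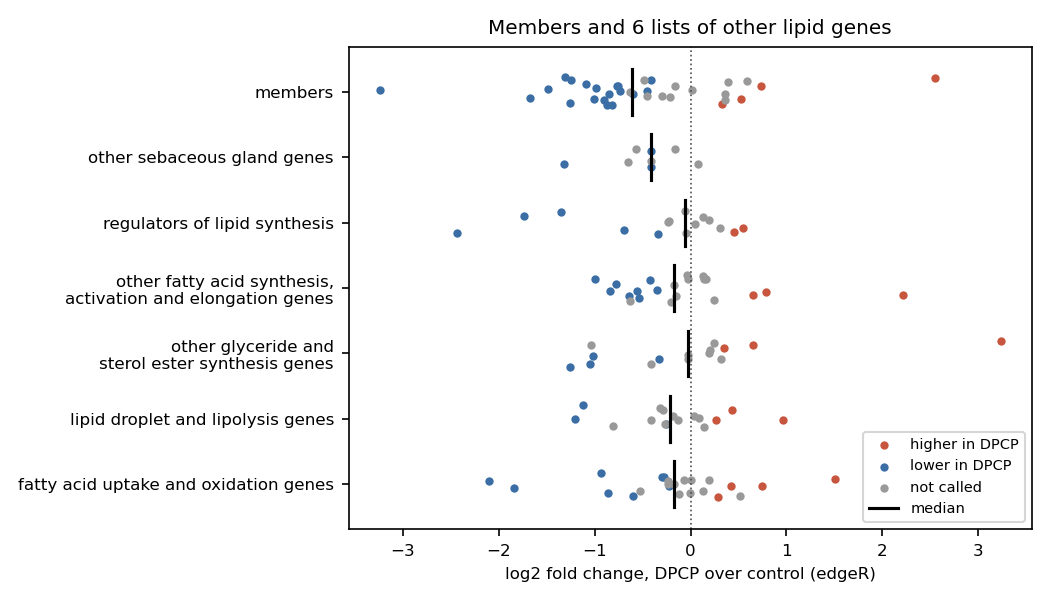
Log2 fold change of DPCP over control for the 34 tested members and for the tested genes of 6 lists of other lipid genes, 1 point per gene, coloured by call, with the median of each as a black bar. The median of the members is −0.61 and those of the 6 lists lie between −0.41 and −0.03.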

How the data were processed

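The authors deposited raw read counts per gene for 6 libraries of polyadenylated RNA, which per the file headers came from featureCounts 1.6.2 and release 102 of the Ensembl annotation of GRCm38. The command there sets no option for strand, read pairs, multiple alignments or overlapping genes. Mates were thus counted singly on either strand, and ambiguous reads dropped. Per the submitters' processing notes the build was mm10 and the tools included HISAT2 2.2.1, Trimmomatic 0.36, DESeq2 1.34.0 and StringTie 2.2.1. The exon lengths used for RPKM come from the same deposited table.

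Symbols came from GENCODE M21 on the same build (55141 of 55487 genes). Counts were tested with the quasi-likelihood test of edgeR 4.0.16 in R 4.3.3 (TMM factors, filterByExpr defaults, all 6 libraries, no block). A check on simulated data changed far fewer genes than were called here, so it cannot show how the test behaves at this share of calls. DESeq2 1.42.0 was an alternative, beside other factors, filters and libraries left out. The labels give no pairing by animal, so the numbers were not taken to pair the libraries. In their deviations from group means, same-numbered libraries correlated at 0.0714, 0.0591 and 0.205. Differently numbered ones ran from −0.245 to 0.164. These values cannot decide whether the libraries are paired. Values in each library are given for members called with a log2 fold change of at least 1 or against their group. From each other list up to 2 called genes per direction with the smallest p are named, except 1 gene that is not reported here. The members and lists were chosen with earlier results of these data known.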

Additional observations from a re-analysis of the deposited data

How the results depend on the processing

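Under the 14 alternatives no member changed direction at a called value, and no call in the opposite direction appeared. Calls of 3 of the 4 higher members (Scd2, Far1 and Fabp5) and of 13 of the 19 lower ones held in every setting that tested them. Reads limit Mogat1 and Mogat2, and mates counted singly make counting limits too narrow.

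With library totals alone the median log2 fold change of all genes was −0.09. The count of members called higher was 7 without a count filter and 1 among genes sharing no exon base, where fewer genes were tested and 2708 genes in all were called higher. Among those genes the counts were 0 higher regulators, 1 higher and 1 lower droplet gene, 2 lower other synthesis genes, 2 lower other glyceride genes and 5 lower uptake genes. Other glyceride genes called higher were 5 with RLE factors, with a filter of 1 CPM in all libraries of a group and with the replicate block. Droplet genes called lower were 5 with upper-quartile factors, 6 with library totals alone, 5 without a count filter and 5 with the replicate block. Other gland genes called lower were 5 with library totals alone, 6 without a count filter and 5 with the replicate block. Uptake genes called lower were 5 with DESeq2 and 5 without a count filter. The causes were not tested.

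With 1 library left out, genes called higher were 3492 to 4035 and lower 3430 to 4039, regulators called higher 1 to 2, gland genes lower 2 to 6, droplet genes lower 2 to 7 and uptake genes lower 5 to 7. The replicate block gave 4260 genes higher and 4241 lower, 5 members higher and 20 lower, with a median of −0.64. Under it Elovl6, Fads1, Fads2 and Awat1 were called, and Mogat1 and Prdm1 were not. The libraries share only a number, and not every library correlated best with its own.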

Other observations

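One gene of the regulator list outside the naming rule had a larger difference than all members but Scd3 and Fabp5, and was chosen after its values were seen. Thrsp, a nuclear protein of lipogenic cells, stood at 156, 74.3 and 133 CPM in the control libraries and at 44.9, 15.6 and 6.70 CPM in the DPCP libraries. The groups did not overlap, and the order of the DPCP libraries was that of Scd3. The log2 fold change was −2.43 ± 0.59 (SE; edgeR adjusted p = 0.00993), and −3.43 without DPCP replicate 1.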
